A study of Homo sapiens with 13 samples.

Results

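TC28a2 is a line of human costal chondrocytes immortalized with the SV40 large T antigen. Its 6 libraries, 3 of DNA and 3 of RNA, come from cells that carried a lentiviral reporter library of scoliosis risk variants for 48 hours. The elements described here are all those with 10 or more DNA barcodes in every TC28a2 replicate, which left 7160 of the 7236 elements in the TC28a2 files and of 9769 unique elements in the whole series of 13 samples. They comprised 1556 of 1579 reference elements and 4422 of 4468 alternative elements at variant positions, 991 of 998 peaks named for cartilage, and all 191 scrambled controls. All groups were untreated apart from the library, and the only contrast is RNA against DNA of the same cells. The line is a single culture model, the labels do not say whether the replicates were separate infections, and no expression data were at hand to check its chondrocyte markers.

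In a lentiviral massively parallel reporter assay, each short synthetic element is linked to many random barcodes, integrated into the genome, and transcribed into RNA that carries the barcode. RNA over DNA of an element then measures how strongly the element drives transcription, with integration averaged over many sites. Chondrocytes build cartilage, including the growth plates of the vertebrae and ribs. Their program depends on transcription factors of the SOX family, and the axial skeleton is laid out earlier by factors such as PAX1 and UNCX. Adolescent idiopathic scoliosis is a curvature of the spine that develops during growth, and most of its risk variants lie outside coding sequence.

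Activity below is log2 of RNA over DNA counts, minus the median that scrambled controls had in that replicate, so that 0 is the scrambled level. At that level an element had 2.75, 2.92 and 2.88 RNA counts per DNA count in replicates 1, 2 and 3. DNA libraries held 5523658 to 5738307 counts and RNA libraries 22048832 to 22212124, and a typical tested element was seen through 185 to 194 barcodes in DNA and 232 to 235 in RNA, as medians per library. The files stop at 500 barcode slots for each element and replicate, so these totals are not full depths. Across the 7160 elements, which are not independent replicates, activities in replicates 1, 2 and 3 gave pairwise correlations of r = 0.596 to 0.604. The agreement of slot values between labelled replicates changed along an element. In slots 1 to 10 of DNA (2750 elements) counts of replicate 3 correlated with those of replicate 2 in the same slot (r = 0.309) and hardly with replicate 1 in the next slot (r = 0.0311). In slots 51 to 200 (2016 elements) these values were 0.189 and 0.184, and RNA gave 0.169 and 0.169 there (2075 elements). Same-slot values of replicates 1 and 2 correlated with r = 0.237 in slots 1 to 10 of DNA and 0.180 in slots 51 to 200, and those of replicates 1 and 3 with 0.204 and 0.0628. Whether a labelled replicate holds counts of more than 1 library was not tested further, and SDs and p-values measure only the spread between these labelled sets, which may be technical.

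Which designed sequences drive transcription in the chondrocyte line was asked by comparing each element with the scrambled level. Transcription above that level was common and transcription below it was rare. Of all elements, 2320 were above the scrambled median (32.4%) and 197 below it (2.75%) in edgeR's quasi-likelihood test at a Benjamini-Hochberg adjusted p under 0.05, and these elements are called above or below from here on. The split rests on the reference level: against the median of all elements, which lies 0.28 higher, 841 were above and 588 below, so that 58.9% of calls were above. Fewer elements were below without replicate 1 (113), replicate 2 (75) or replicate 3 (127). Most activities were modest. Only 377 elements exceeded a log2 activity of 1 and 34 exceeded 2, whereas 16 lay under -1. Of the 34, 33 were cartilage peaks and the other was the single-base deletion element at position 53822169 of chromosome 16.

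Cartilage peaks stood highest as a class. Their median activity was 0.64, 0.56 and 0.60 in replicates 1, 2 and 3, and 676 of 991 were above (68.2%, 95% exact binomial interval 65.2 to 71.1) and 33 below (3.33%). The middle portion of the class, from the lower to the upper quartile, reached from 0.26 to 1.04, and 262 peaks exceeded 1. Reference elements of the variants had medians of 0.25, 0.23 and 0.27, with 426 of 1556 above (27.4%, 25.2 to 29.7) and 43 below (2.76%), and quartiles of 0.02 and 0.47. Alternative elements had medians of 0.27, 0.22 and 0.27, with 1199 of 4422 above (27.1%, 25.8 to 28.5) and 109 below (2.46%). Their share above was 17.7% without replicate 3 and 6.29% against the median of all elements. Scrambled controls, whose median is 0 by construction, had quartiles of -0.23 and 0.24, with 19 of 191 above (9.95%, 6.10 to 15.1) and 12 below (6.28%). These intervals cover counting error only. Elements of 1 class share their libraries, and alleles of a position share nearly all of their sequence.

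The class medians differed in the same order in every replicate, while alternative and reference elements did not separate. Cartilage peaks exceeded reference elements by 0.40, 0.33 and 0.33 (mean 0.35 ± 0.04, SD, n = 3). Reference elements exceeded scrambled controls by 0.25, 0.23 and 0.27 (mean 0.25 ± 0.02, SD, n = 3). Alternative elements differed from reference elements by 0.019, -0.011 and -0.0008 (mean 0.0025 ± 0.015, SD, n = 3), less than the spread between replicates. An exact sign-flip permutation test over the 3 replicates, two-sided, gave p = 0.25 for the peak and the scrambled comparison, the smallest it can give, and p = 1 for the alleles (adjusted p = 0.333, 0.333 and 1 over 4 comparisons). Activity was positive in all 3 replicates for 79.8% of cartilage peaks, 53.3% of reference elements and 26.7% of scrambled controls.

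The number of barcodes moved with both the level and the calls. Among reference elements with 10 to 49 DNA barcodes the median activity was -0.01 and 5 of 116 were above. With 100 to 199 barcodes the median was 0.24 and 89 of 479 were above (18.6%), and with 300 or more it was 0.38 with 175 of 315 above (55.6%). Scrambled controls had medians of 0.07, -0.03 and 0.06 in the same bands. The median SD between replicates of an element fell from 0.375 over all elements with 10 to 49 barcodes to 0.167 over those with 300 or more. Cartilage peaks had a median of 364 DNA barcodes against 167 for reference elements, and 74.8% of them had a count in slot 500 of at least 1 library, against 19.1% of reference elements. Within the bands that follow, the shares above kept the order of the classes. With 100 to 199 barcodes 42 of 83 peaks (50.6%) and 5 of 80 scrambled controls (6.25%) were above. With 200 to 299 barcodes these were 85 of 144 peaks (59.0%), 126 of 340 reference elements (37.1%) and 5 of 39 scrambled controls (12.8%). With 300 or more, the band of most peaks, 539 of 739 peaks (72.9%) and 9 of 33 scrambled controls (27.3%) were above. The share of scrambled controls above thus rose with the barcodes over these bands. With 10 to 49 barcodes the scrambled median (0.07, 10 elements) lay above the reference median (-0.01), and 3 of 6 peaks were above. Without elements that reached slot 500 the peaks exceeded reference elements by 0.24, 0.23 and 0.22 in the 3 replicates. The part of the barcode limit in the remaining difference was not tested. At the rule's threshold, the 41 elements with 10 to 14 barcodes in their poorest DNA replicate had activities from -1.61 to 1.28 (median SD between replicates 0.401), and the 32 with 5 to 9 had activities from -0.84 to 2.04 (0.723).

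The strongest sequence of the library in TC28a2 was a cartilage peak of chromosome 13. The submitters' processing notes name the build hg19 for coordinates, every peak element spans 200 bp, and no gene or exon was assigned because the annotation at hand is of another build. The peak chr13:45915277-45915477 gave 18069, 16870 and 16201 RNA counts over 833, 804 and 785 DNA counts in replicates 1, 2 and 3. Its activity was 2.98, 2.84 and 2.84, a 7.41-fold higher RNA over DNA than the median scrambled control (mean 2.89 ± 0.08, SD, n = 3; edgeR adjusted p = 1.90e-07). It did not reach slot 500, unlike 7 of the other 9 peaks in the top 10.

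Next in order came chr1:173991520-173991720 at 2.59 ± 0.28 (SD, n = 3), chr17:79935223-79935423 at 2.55 ± 0.13 and chr2:178077370-178077570 at 2.50 ± 0.21. They were followed by chr7:155437186-155437386 at 2.45 ± 0.14, chr1:154193335-154193535 at 2.45 ± 0.32 and chr9:135545708-135545908 at 2.44 ± 0.03. The last of the 10 were chr11:65479601-65479801 at 2.43 ± 0.27, chr5:179159683-179159883 at 2.40 ± 0.17 and chr19:15490033-15490233 at 2.39 ± 0.22. All 10 were above, with edgeR adjusted p between 1.90e-07 and 1.12e-06. From the peak of chromosome 1 at 173991520 onward, neighbours in this order differed by less than their SD, so their ranks cannot be told apart. The 2 that like the chromosome 13 peak did not reach slot 500 were chr1:154193335-154193535, with 159 DNA barcodes, and chr11:65479601-65479801, with 145.

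A small set of cartilage peaks drove less transcription than the median scrambled control. Of 991 peaks 33 were below (3.33%), against 2.75% of all elements and 6.28% of scrambled controls. The lowest peak was chr9:131644438-131644638, with 840, 711 and 853 RNA counts over 930, 865 and 1148 DNA counts. Its activity was -1.61, -1.83 and -1.95, and RNA over DNA was 3.47-fold lower than at the scrambled level (edgeR adjusted p = 1.75e-05). Another peak of chromosome 9, chr9:110045872-110046072, was at -0.78, -1.71 and -1.22 (edgeR adjusted p = 0.00121). The peak chr20:61436330-61436530, which reached slot 500, was at -0.99 ± 0.12 (SD, n = 3; edgeR adjusted p = 0.000253). The peaks chr2:114647840-114648040 at -0.93 ± 0.28 and chr8:22423332-22423532 at -0.92 ± 0.29 completed the lowest 5 (edgeR adjusted p = 0.00637 and 0.00571). In these 5 peaks every replicate lay under 0, but those of chromosomes 2 and 8 were no lower than the lowest scrambled control (-0.96). The call of the chromosome 8 peak was lost when counts per barcode were compared with limma (adjusted p = 0.0913).

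Most chromosomes had a majority of their peaks above, as did the peaks as a whole (68.2%). Over the 20 chromosomes with 20 or more peaks, the median activity ran from 0.15 on chromosome 13 to 0.85 on chromosome 6. On chromosome 6, 29 of 39 peaks were above (74.4%), and the medians of its replicates were 0.80, 0.79 and 0.89. Chromosome 22 had a median of 0.78 with 22 of 27 above (81.5%), and chromosome 2 of 0.68 with 50 of 72 above. Chromosome 1, with the most peaks, had a median of 0.55 with 72 of 102 above (70.6%). The shares of chromosomes 1 and 2 lay near that over all peaks, and no difference between chromosomes was tested. Chromosome 13 was the low end: 7 of its 20 peaks were above (35.0%), and its replicate medians of 0.45, -0.0041 and 0.20 spread more widely than those of chromosome 6. It also had the smallest share of peaks at slot 500 of the 20 chromosomes, 45.0%, and the part of this in its low median was not tested. The highest peak of the library lay on this same chromosome.

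None of the cartilage peaks overlapped a variant element (0 overlaps, taking variant elements as 200 bp centred on the variant). Still, 5 peaks lay inside the span of a scoliosis region and 25 lay inside or within 1 Mb of one, of which 17 were above, a share near the 68.2% over all peaks. Within the region of WNT9A and WNT3A, genes of secreted Wnt signals, the peak chr1:228353655-228353855 was at 1.51 ± 0.23 (SD, n = 3; edgeR adjusted p = 5.27e-06). A different peak of that region, chr1:228270568-228270768, lay below at -0.37 ± 0.12 (edgeR adjusted p = 0.031). Inside the region of chromosome 9 at 34 Mb, chr9:34178883-34179083 reached 2.30 ± 0.07 (SD, n = 3; edgeR adjusted p = 2.69e-07), against a median of 0.33 for the 10 reference elements around it. The peak within the region of COL10A1, the collagen gene of hypertrophic chondrocytes, was chr6:116600783-116600983 at 0.10 ± 0.17, and it was not called (edgeR adjusted p = 0.523). In the stretch of chromosome 1 at 150 Mb, chr1:149981985-149982185 was above at 0.51 ± 0.17 (edgeR adjusted p = 0.0333). These 5 regional peaks were selected by position and not by the rule for named elements.

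Alleles of a position differed less from each other than positions did. At 1561 positions with at least 2 tested elements, the SD between the elements of a position had a median of 0.130. The SD between the means of positions was 0.334, and the median SD between replicates was 0.235. The SDs within and between positions are of activities averaged over replicates, whereas the SD between replicates is of single replicates. The last is therefore not on the same scale as the SD between alleles. The reference element and the mean of its alternatives correlated with r = 0.828 over 1553 positions, whose elements share libraries and nearly all of their sequence. At 228 positions every element was above, at 11 every element was below, and at 825 none was called. In 427 positions only some elements were above and in 70 only some were below, and at none (0) did calls point both ways. Of 426 positions with a reference element above, 228 had all their alternatives above too.

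The most active variant position was 17800379 of chromosome 12, in a region with no gene named. Its reference element gave 18014, 21765 and 17222 RNA counts over 1733, 1780 and 1610 DNA counts, an activity of 1.92, 2.07 and 1.90 (mean 1.96 ± 0.09, SD, n = 3; edgeR adjusted p = 3.76e-07). The 3 alternatives lay at 1.79, 1.84 and 1.92, with replicates that overlapped those of the reference element, and all 4 elements reached slot 500. No other tested position lay within 200 bp of it. In the same region 17 of 368 elements were below and 50 above.

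Position 82249382 of chromosome 11 followed among positions with 4 alleles. Its reference element was at 1.60, 1.57 and 1.42 (mean 1.53 ± 0.10, SD, n = 3; edgeR adjusted p = 1.52e-05) and its alternatives between 1.53 and 1.72. Position 85276025 of chromosome 4 had its reference element at 1.64, 1.24 and 2.06 (mean 1.65 ± 0.41; edgeR adjusted p = 4.82e-05) and alternatives from 1.49 to 1.59. Neither position reached slot 500 in any library. The reference element 143 bp upstream of 85276025 was at 0.25 ± 0.15 and was not called (edgeR adjusted p = 0.175).

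The locus of CSMD1, a gene of a large complement-regulating membrane protein, held a pair of positions among the 10 highest. At 3125811 of chromosome 8 the reference element was at 1.49, 1.77 and 1.33 (mean 1.53 ± 0.22, SD, n = 3; edgeR adjusted p = 5.52e-05), from 403, 412 and 433 DNA counts and 3107, 4093 and 3139 RNA counts. Its alternatives lay between 1.45 and 1.75. At 3134081 the reference element was at 1.25, 1.04 and 1.59 (mean 1.29 ± 0.28; edgeR adjusted p = 0.00012) and the alternatives between 1.16 and 1.66. None of these 8 elements reached slot 500.

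The remaining positions of the highest 10 were spread over other loci. In the locus of ADGRG6, an adhesion receptor expressed in cartilage, the elements of position 142799327 of chromosome 6 lay between 1.36 and 1.57. In that of PLXNA2, a semaphorin receptor, the reference element of position 208222284 of chromosome 1 was at 1.15, 1.15 and 1.12. Its alternatives were at 1.34 ± 0.14, 1.49 ± 0.15 and, for C208222284G, 1.79 ± 0.15 (SD, n = 3), so that all 3 lay above the reference in every replicate, a difference that was not tested. At PAX1, a sclerotome factor, the elements of 21900117 of chromosome 20 lay between 1.30 and 1.36, and at 81251116 of chromosome 6 between 1.26 and 1.35. The deletion position 53822169 of the FTO locus, where 2 elements were tested, had a mean of 1.81, with 0.93 for the reference and 2.69 for the deletion. From 82249382 of chromosome 11 down to 81251116, neighbours in the order overlap in the ranges of their elements and cannot be ranked.

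The 5 lowest positions with every element below rested on a median of 26.5 to 191.5 DNA barcodes, against 70.5 to 376 for the 10 highest. At 17810844 of chromosome 12, in the region of the most active position, the reference element was at -0.66, -1.49 and -1.91 (mean -1.35 ± 0.64, SD, n = 3; edgeR adjusted p = 0.00375) from 194, 218 and 237 DNA counts and 338, 227 and 181 RNA counts. Its alternatives were at -1.17, -1.16 and -1.77, and no replicate of the 4 elements lay above 0. At 3128471 of chromosome 8 the reference element was at -2.39, -0.36 and -1.47 (mean -1.41 ± 1.02; edgeR adjusted p = 0.0191), from 88, 69 and 83 DNA counts. That call was lost without replicate 1, at -0.92 (edgeR adjusted p = 0.124), or replicate 3, at -1.34 (edgeR adjusted p = 0.0578). The alternatives of that position lay between -1.61 and -0.85. The others were 82883758 of chromosome 16 in the locus of the cadherin gene CDH13 (-1.06 to -0.65), 16041156 of chromosome 11 at SOX6 (-1.09 to -0.56) and the deletion position 82203841 of chromosome 11 (-0.87 and -0.62). Their reference elements also depended on single replicates. The call was lost at 82883758 without replicate 1 or 2 (edgeR adjusted p = 0.0631 and 0.0669), at 16041156 without replicate 2 or 3 (0.0698 and 0.0532) and at 82203841 without replicate 2 (0.0622). Some alternative elements were no firmer. The element G82883758T (edgeR adjusted p = 0.0488) lost its call in 8 alternatives, among them DESeq2, limma and each left-out replicate. The element T16041156G lost it in 5, and G3128471A and G3128471C lost it with DESeq2 (adjusted p = 0.0574 and 0.101).

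By chromosome region, the library covered 25 stretches of variant positions separated by more than 1 Mb, and in all 25 the median reference element was positive in every replicate. Gene names are those by which the loci are usually known, not assignments of a variant to a gene. Region shares above are read against 1625 of 5978 variant elements (27.2%), since the 32.4% over all tested elements includes the cartilage peaks, and against the barcodes, which differed between regions. With 200 or more barcodes, 45.6% of 2506 variant elements were above. Over all 5978 variant elements 152 were below (2.54%), so a count of 0 below says little in a region of few elements. No element was below (0 by edgeR) in the regions of UNCX (4 of 175 at an unadjusted p under 0.05, 2 by DESeq2 and 0 by limma), PLXNA2 (1 of 138 unadjusted, 0 by either other tool), CREB5 and WNT9A and WNT3A (0 by all of these counts). The same held, with 0 by all of these counts, for SOX9 and the small stretches of chromosome 1 at 150 Mb and chromosome 5 at 56 Mb.

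Among the loci named for transcription factors, 554 of 1993 elements were above (27.8%) and 53 below (2.66%). UNCX, which patterns the somites, had the highest share among the loci of this group with 20 or more reference elements: 83 of 175 elements were above (47.4%), with a median reference activity of 0.37 ± 0.06 (SD over replicate medians, n = 3) and 320 DNA barcodes. Its highest reference element, at 1267820 of chromosome 7, stood at 1.33, 1.05 and 1.27. LBX1, a factor of migrating muscle precursors, had 24 of 50 above and 3 below. Its highest reference element, at 102997581 of chromosome 10, was at 0.87 ± 0.23 (SD, n = 3). The LBX1 median of 0.34 became -0.018 when elements at slot 500 were left out, with the centring on all 191 scrambled controls kept. On that scale the 159 scrambled controls that did not reach slot 500 had a median of -0.044, lower than that of LBX1.

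PAX1, the largest locus with 999 elements, had 307 above (30.7%) and 22 below, a median of 0.29 ± 0.02 and its highest reference element at 21900117. SOX6, a factor of chondrocyte differentiation, was at the low end, with 35 of 262 above (13.4%), 11 below and a median of 0.19 ± 0.03. It had 100.5 barcodes at the median, and with 200 or more barcodes 34.2% of 38 elements were above. Its highest reference element, at 16163426 of chromosome 11, was at 1.09, 0.95 and 1.39. BNC2, a zinc finger factor, had 34 of 190 above with its highest reference element at 16707122 of chromosome 9 (1.15 ± 0.29, SD, n = 3). CREB5, a factor that binds cyclic AMP response elements, had 29 of 98 above, with its top at 28587023 of chromosome 7 (0.72 ± 0.22).

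In the region of EPHA4, an ephrin receptor, and PAX3, a factor of muscle and neural crest precursors, 34 of 177 were above and 10 below, and its highest reference element, at 222761682 of chromosome 2, was at 1.17, 1.17 and 1.08. TBX1, a T-box factor of the pharyngeal arches, had 8 of 30 above, with its top at 19757572 of chromosome 22 (0.60 ± 0.08, SD, n = 3). In the region near SOX9, the master factor of chondrocytes, 0 of 12 elements were above by edgeR, with 3 at an unadjusted p under 0.05, 1 by DESeq2 and 0 by limma. The highest of its 3 reference elements, at 69239935 of chromosome 17, had values of 0.28, 0.38 and 0.51 (edgeR adjusted p = 0.0737, and 0.0499 with no replicate block), and none of the 12 had 200 barcodes.

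Loci of adhesion, matrix and guidance genes had 338 of 1058 elements above (31.9%) and 18 below (1.70%). PLXNA2 led with 68 of 138 above (49.3%) and the highest median among the 18 regions with 20 or more reference elements, 0.38 ± 0.03 (SD, n = 3). Its elements had 284 barcodes at the median, and 60.6% of the 94 with 200 or more were above. The rank of its median depended on the setting. Without slot 500 it was 0.28, under CREB5 and FTO (0.33 each), and without replicate 1 it was 0.32, under UNCX (0.41). CDH13 had 153 of 486 above (31.5%) and 10 below. Its highest reference element, at the insertion position 82919071 of chromosome 16, was at 1.15, 0.67 and 0.69, and had 236 RNA barcodes for 118 DNA barcodes. Compared per barcode, its activity was -0.059 (limma adjusted p = 0.674), so its direction depends on how barcodes are counted. ADGRG6 had 87 of 312 above (27.9%) and a median of 0.21 ± 0.01. In the region of COL10A1 and NT5DC1, 30 of 122 were above and the top, at 116422473 of chromosome 6, was at 0.98, 1.31 and 1.18.

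The region of WNT9A and WNT3A was small and active. There 33 of 47 elements were above (70.2%), and 10 of 13 reference elements were above, with a median of 0.45 ± 0.02 (SD, n = 3) and a top of 1.14, 0.91 and 0.99 at 228133322 of chromosome 1. Its elements had 355 barcodes at the median, and 76.2% of the 42 with 200 or more were above, the highest such share among the 19 regions with 40 or more elements of that depth.

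The FTO, CSMD1, ABO and BCL2 loci together had 290 of 953 elements above (30.4%) and 18 below. FTO, with 115 of 347 above (33.1%), had a median of 0.35 ± 0.01 and its highest reference element at 53822142 of chromosome 16 (1.29 ± 0.16, SD, n = 3). CSMD1 had 102 of 338 above and BCL2, an inhibitor of apoptosis, 25 of 124. Of the 66 BCL2 elements with 200 or more barcodes, 25.8% were above. That was the lowest such share among the 19 regions with 40 or more elements of that depth. The top of BCL2, at 60876114 of chromosome 18, was at 0.89 ± 0.28. ABO, the blood group locus, had 48 of 144 above. The reference element ranked highest there, at the insertion position 136146068 of chromosome 9, was at 3.65, 0.43 and -0.30, with 2663, 346 and 233 RNA counts over 77, 88 and 100 DNA counts. Replicate 1 alone stood high, replicate 3 lay under the scrambled level, and the element was not called (edgeR adjusted p = 0.164). It was above without replicate 3 (0.0304) or with no replicate block (0.0399), and without replicate 1 its edgeR adjusted p was 0.923.

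Regions without a gene name had 410 of 1927 elements above (21.3%) and 63 below (3.27%), at 142 barcodes. The stretch of chromosome 11 at 82 Mb had 150 of 810 above (18.5%) and a median of 0.24 ± 0.02, and that of chromosome 12 at 18 Mb 50 of 368 (13.6%) and the lowest median of the larger regions, 0.17 ± 0.03, although it holds the most active variant position. That of chromosome 4 at 85 Mb had 123 of 455 above (27.0%), and that of chromosome 6 at 81 Mb 64 of 226 (28.3%). The small stretches of chromosome 1 at 150 Mb, chromosome 5 at 56 Mb and chromosome 9 at 34 Mb had 7 of 16, 5 of 12 and 11 of 40 above. Their highest reference elements were at 0.52 ± 0.12 (149927034), 0.57 ± 0.32 (55764931) and 0.75 ± 0.41 (34380538). The call at 55764931 was narrow (edgeR adjusted p = 0.0492) and was lost without replicate 1 or 2 (0.274 and 0.12) and with no replicate block (0.115), and that at 149927034 was lost without replicate 3 (0.0586). Over the 18 larger regions the replicate SDs of these medians ran from 0.007 to 0.10, and differences between regions were not tested.

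Where variant positions are close, their elements share sequence, and activity could be followed along the genome. Names of the scrambled controls give windows of 200 bp centred on a variant, so elements at positions d bp apart should share 200 - d bp. Neighbouring reference elements at most 20 bp apart correlated with r = 0.610 (58 pairs), and those 21 to 50 bp apart with r = 0.636 (89 pairs). The correlation was 0.316 at 51 to 100 bp (129 pairs), -0.011 at 101 to 150 bp (116 pairs), -0.018 at 151 to 200 bp (87 pairs) and 0.021 at 201 to 1000 bp (550 pairs). These pairs share libraries, and a position may enter 2 pairs. The median absolute difference of neighbours rose from 0.147 at most 20 bp apart to 0.209 at 21 to 50 bp and 0.293 at 51 to 100 bp. Farther apart the rise was not steady. The difference was 0.266 at 101 to 150 bp, 0.241 at 151 to 200 bp and 0.334 at 201 to 1000 bp. Where either neighbour was above, both were in 8 of 17 pairs up to 20 bp, 21 of 41 pairs at 21 to 50 bp and 20 of 67 at 51 to 100 bp. At 101 to 150 bp both were above in 17 of 58 such pairs (29.3%), near the 29.9% at 51 to 100 bp. The counts were 8 of 34 at 151 to 200 bp and 43 of 244 at 201 to 1000 bp.

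Single loci showed how sharp the change can be. The active element at 3125811 of chromosome 8 (1.53) was followed 74 bp downstream by a reference element at 0.43 ± 0.10 (SD, n = 3; edgeR adjusted p = 0.0169) and 113 bp downstream by one at 0.55 ± 0.47 (edgeR adjusted p = 0.0243). Around 3134081 (1.29), the reference elements 123 and 142 bp upstream were at -0.019 ± 0.49 and -0.22 ± 0.06, and those 90, 111 and 129 bp downstream at 0.36 ± 0.22, 0.40 ± 0.25 and 0.39 ± 0.10. None of the 7 reference elements within 200 bp of it was called. At PAX1 the reference element 62 bp upstream of 21900117 was at 0.87 ± 0.71 and was above (edgeR adjusted p = 0.0185). At FTO the neighbours were higher than the reference element of 53822169 (0.93). Those 27 bp upstream and 14 bp downstream were at 1.29 ± 0.16 and 1.14 ± 0.25.

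Runs of at least 3 positions with steps of at most 200 bp numbered 103, with 1624 elements at 424 positions. Of these elements 463 were above (28.5%), a share near the 27.2% over all variant elements. In 21 runs no element was above, in 6 every reference element was, and in 2 every element was. The run at FTO, 53822142 to 53822183 of chromosome 16, had all 10 elements above and the highest median, 1.23. The run at CDH13, 82872790 to 82873003 of chromosome 16, had all 16 elements above at a lower level, with reference elements at 0.38, 0.59, 0.49 and 0.45 and a top of 0.73 ± 0.17 (SD, n = 3). At PAX1, the run from 21884693 to 21884872 of chromosome 20 had reference elements at 0.91, 0.71 and 0.35 and a top of 1.12 ± 0.09, and that from 21863825 to 21864074 at 0.61, 0.58 and 0.50. The remaining runs of the 6 were at 85274114 to 85274312 of chromosome 4, with reference elements at 0.43, 0.47 and 0.44, and at 3125811 to 3125924 of chromosome 8.

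Scrambled controls are named for the variant window they were made from, and a few of them drove transcription. The highest, of the window chr2:222781159-222781359, was at 1.13, 1.59 and 1.12 (mean 1.28 ± 0.27, SD, n = 3; edgeR adjusted p = 3.10e-05), against 0.46 for the native reference element. That of chr9:136142900-136143100 was at 1.21, 1.24 and 1.19 (edgeR adjusted p = 8.34e-06), whereas its native element stood at -0.28 and was not above. The third, chr20:21853000-21853200, was at 1.03 ± 0.09 (edgeR adjusted p = 0.000644) with its native element at 0.06. The lowest were those of chr9:16703281-16703481 (-1.26, -1.38 and -0.24), chr20:21969212-21969412 (-0.65, -1.16 and -0.74) and chr11:82193901-82194101 (-0.47, -1.19 and -0.85). All 3 were below (edgeR adjusted p = 0.0231, 0.00887 and 0.00647), and each lost its call without replicate 2 (0.13, 0.0713 and 0.0719). The first also lost it without replicate 1 (0.126).

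Pairing each control with its own native element placed the native one higher in most windows. Over 171 pairs the median difference, native minus scrambled, was 0.18, 0.20 and 0.26 in replicates 1, 2 and 3 (SD 0.04, n = 3), with the native element higher in 119 pairs. The exact sign-flip permutation test over replicates gave p = 0.25, its smallest value (adjusted p = 0.333 over 4 comparisons). In 36 pairs only the native element was above, in 9 only the scrambled one, and in 7 both were. The scrambled element was below in 11 pairs and the native one in 3, with 0 pairs in which both were. The activities of the members of a pair hardly correlated (r = 0.041 over 171 pairs, which share libraries).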

How the data were processed

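The authors deposited raw counts per barcode slot, as whole numbers without normalization, for DNA and RNA of each line, and the file names say that barcodes were cleaned and the first 500 kept. Neither aligner nor counter is given in the sources used here. Per the labels' protocols, the DNA and RNA of a replicate number were isolated together. Whether counts are molecules or PCR reads is not stated. The binomial intervals rest on numbers of elements called and cover only the counting error of elements, which share libraries. Slots were summed per element and replicate, and each element was counted once. Activity is the mean over 3 replicates of log2 RNA over DNA, centred per replicate on the median of 191 scrambled controls. Calls come from edgeR 4.0.16 (R 4.3.3; TMM, quasi-likelihood, replicate as a block, RNA scaled to the scrambled median), adjusted by Benjamini-Hochberg over 7160 elements. Same-numbered DNA and RNA deviations correlated with r = 0.0206, -0.00976 and -0.0117, so the block rests on the labels. Replicates differed by more than sampling noise (chi-square over degrees of freedom 10.5 to 59.6). DESeq2 1.42.0 and limma 3.58.1 were alternatives, and the scripts were tested on simulated data. Named were, by a fixed rule, the 10 highest and 5 lowest called peaks, the 10 highest and 5 lowest positions with all elements called, the highest reference element of each region and the highest element of runs with every reference element above, and the 3 highest and 3 lowest scrambled controls. Elements, lists and rules were chosen with earlier results of these data known. The other cell line and the sample that links barcodes to elements were not used here beyond the element names.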

Additional observations from a re-analysis of the deposited data

How the results depend on the processing

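Depth, the choice of reference and the limit on barcodes changed how many elements were called. Elements above numbered 2375 with no replicate block, 2559 with DESeq2, 3364 without the highest slot of each library, 1705 with limma on counts per barcode, and 1686 to 1743 without 1 replicate. Without elements at slot 500, 1110 were above and 93 below among the 5231 elements kept, of which 1119 and 161 had been called with all elements in the fit. Against the median of all elements 841 were above and 588 below. Elements below numbered 89 per barcode and 75 to 127 without 1 replicate. For reference elements the share above was 30.7% with DESeq2, 32.5% with 50 or more barcodes, 20.3% without slot 500, 43.0% without the highest slot, 17.4% per barcode, 6.75% against all elements and 18.3% to 19.9% without 1 replicate. For alternative elements these shares were 30.8%, 32.2%, 20.2%, 42.8%, 16.7%, 6.29% and 17.7% to 18.4%. For cartilage peaks the share was 50.4% without slot 500, 77.6% without the highest slot, 45.6% against all elements and 59.2% to 61.6% without 1 replicate, and for scrambled controls 5.03%, 17.8%, 3.14% and 7.33% to 8.38%. The median reference element moved from 0.27 to 0.29 without the highest slot, 0.17 per barcode, 0.24 to 0.29 without 1 replicate, and reversed to -0.022 against all elements. The median peak moved from 0.59 to 0.48 without slot 500 and 0.30 against all elements. The lowest and highest medians of the larger regions were 0.11 and 0.33 without slot 500, and 0.12 to 0.18 and 0.41 to 0.42 without 1 replicate. The highest region changed from PLXNA2 to CREB5 without slot 500 and to UNCX without replicate 1. The lowest changed from chromosome 12 at 18 Mb to SOX6 without replicate 1 or 3. Without slot 500 the medians of LBX1 (-0.018) and of chromosome 1 at 150 Mb (-0.072) fell under 0, still centred on all 191 scrambled controls. On that scale the 159 scrambled controls that did not reach slot 500 had a median of -0.044, lower than that of LBX1. The value of chromosome 1 at 150 Mb was that of the lowest of its 4 reference elements. Per barcode the insertion position of CDH13 reversed (-0.059). Steps of at most 100 bp gave 52 runs, again with 6 in which every reference element was above. Of 96 named elements with a call, 75 kept it in every alternative that tested them and 21 lost it in at least 1. The cause of these changes was not tested. With no replicate block, 2237 of its 2375 elements were also among the 2320.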

Other observations

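Besides the counts, the number of barcodes seen in RNA moved with activity. Among elements that did not reach slot 500, the median ratio of RNA to DNA barcodes was 1.29 over 1119 elements above (quartiles 1.22 and 1.37), 1.19 over 3951 elements without a call and 0.925 over 161 elements below (quartiles 0.855 and 0.997). By class it was 1.24 for cartilage peaks, 1.21 for reference and for alternative elements and 1.14 for scrambled controls. The ratio shares its libraries with the activity, so it is not independent of the calls.

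At 53 variant positions at least 1 element exceeded an activity of 1, and at 15 every element did. Of these 15 positions, 8 had no other tested position within 200 bp. Among cartilage peaks within 1 Mb of the region of chromosome 9 at 34 Mb, chr9:35749184-35749384 was at 2.21 ± 0.08 and chr9:35658224-35658424 at 1.69 ± 0.16 (SD, n = 3).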
